A study of Homo sapiens with 2 samples.

Results

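Integrins and matrix metalloproteinases (MMPs) are 2 gene families through which cells hold on to and cut through the extracellular matrix. The 48 genes described here are 18 integrin α genes, 8 integrin β genes and 22 MMP genes, taken by name and each found among the 20033 protein-coding genes of chromosomes 1 to 22, X and Y. They were set against chromatin immunoprecipitation sequencing (ChIP-seq) of p52, the processed form of NF-κB2 and the DNA-binding subunit of non-canonical NF-κB, in MDA-MB-231, an established human cell line of triple-negative breast cancer (TNBC). The study asked how TWEAK, a cytokine, and its receptor Fn14 change the chromatin of such cells, and p52 is one of the factors that act below the receptor. All cells had 8 h of serum starvation and 48 h of TWEAK at 10 ng/ml, which was renewed after 24 h. There were 2 replicates of this 1 group, described as biological in the study's methods, although the labels did not name separate cultures. Untreated, IgG and input libraries were not analysed here, so nothing in these values measures an effect of TWEAK.

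Each replicate gave a list of summits, the single base of a peak where the signal was highest, with a strength in a column without a header, read here from its layout as −log10 of the q-value of the authors. Replicate 1 held 2007 summits (1804 of them on chromosomes 1 to 22, X and Y) and replicate 2 held 1467 (1225). Strengths ran from 1 to 531 with a median of 10.3 in replicate 1, and from 1.02 to 594 with a median of 9.47 in replicate 2. The lists hold no read counts, so the depth behind a summit is unknown, and a gene without a summit was one where no summit was detected, not one shown to lack p52. Ranks are given within a list, with 1 the strongest. A summit was called shared when the other list had one within 200 bp.

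Integrins are heterodimers of an α and a β chain that bind matrix proteins such as fibronectin, laminins and collagens, or receptors on other cells, and that pass force and signals to the cytoskeleton. MMPs are zinc-dependent proteases, secreted or held at the membrane, that cleave matrix proteins and release growth factors. Both families are long studied in the invasion of breast cancer cells. MMP9 is a textbook target of NF-κB and AP-1, and NF-κB dimers bind κB elements, which have a G-rich left end and a C-rich right end.

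Of the 48 genes, 6 had a p52 summit within 50 kb of an annotated start site in either replicate. They were the integrin genes ITGA3, ITGA5, ITGB4, ITGB6 and ITGB7 and the protease gene MMP25. In both replicates there were only ITGB4 and ITGB6. The other 42 genes had none within 50 kb, among them 21 of the 22 MMP genes. Whether a κB element lay under these summits comes first, since it separates the 6 loci.

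The site of ITGB6 was the only one of the 6 loci with a κB match, a summit in both replicates and a position outside exons and pseudogenes. It lay in an intron of ITGB6 and held 2 overlapping matches to the κB consensus of 10 letters, searched on both strands.

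κB matches were also found near ITGA3 and MMP25, each with a summit in 1 replicate. Stretches of 30 bases on the plus strand are shown, from chr17:50090393-50090422 in the last exon of ITGA3 and from chr16:3065294-3065323 at the start of IL32, the gene next to MMP25. Capitals mark 2 overlapping κB matches.
ITGA3: tactgtagcaGGGGAATTCCCtccccctcc
MMP25: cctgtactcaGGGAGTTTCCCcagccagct

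The summits near ITGB4, ITGA5 and ITGB7 had no κB match within 100 bp. For comparison with the runs above, 30 bases around the closest 10-letter stretch are shown in capitals, from chr17:75777834-75777863, chr12:54350875-54350904 and chr12:53153465-53153494. Each of these stretches had 2 mismatches to the κB consensus. The ITGB4 run is from the shared summit, and the closest stretch at the stronger ITGB4 summit of replicate 1, not shown, had 3. Windows of the same length displaced from the summits of replicate 1 held a stretch with at most 2 mismatches in 91% of cases, so a stretch of that kind is found nearly everywhere.
ITGB4: ccttataaatAAAATCCCCCagttagtgtt
ITGA5: gaatgtgctgAGTGTTTTCCtccctttgcc
ITGB7: cttgtatcaaGGGTTATCACgtgattgctc

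ITGB6 encodes the β chain that pairs with the αv chain in epithelial cells and is known for activating latent TGF-β. The gene lies at chr2:160099667-160200313. Its summit had a strength of 30 in replicate 1 (rank 338 of 2007) and of 28.5 in replicate 2 (rank 193 of 1467). The replicates placed it 1 bp apart. The centres of the κB matches were 0.5 bp to either side of the replicate 1 summit, and 0.5 and 1.5 bp from that of replicate 2. The summit was 36.6 kb from the nearest of 7 annotated start sites, 2 of which lay within 50 kb, and it was 51.6 kb from the start of the canonical transcript. The same base is also intronic in ENSG00000285155, a gene of a long non-coding RNA. ITGB6 was the only protein-coding gene with a start site within 50 kb of it.

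ITGB4 encodes the β chain that pairs with α6 and anchors hemidesmosomes to laminin. The gene lies at chr17:75721328-75757818 on the plus strand, and its summits lay past its end. Replicate 1 had a summit at base 75777862 with a strength of 4.12 (rank 1673) and another at base 75778499 with a strength of 14.2 (rank 770). Replicate 2 had 1 summit at base 75777897 with a strength of 3.07 (rank 1288 of 1467). The weaker summit of replicate 1 was shared, 35 bp from that of replicate 2, whereas the stronger one was 602 bp from it and was not. All 3 positions lay in untranslated sequence of H3-3B, which encodes the histone variant H3.3. They were toward the 3′ end of that gene, whose 5′ end was 7.394 kb from the stronger summit. The nearest H3-3B start site, between 787 and 1424 bp away, was one inside the gene. The distance to the nearest ITGB4 start site was 20.8 kb for the shared summit, and 56.4 kb to the start of the canonical transcript.

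ITGA3, which encodes the α chain of a laminin receptor, lies at chr17:50055968-50090481. It had a summit in replicate 2 at base 50090395, with a strength of 1.1 and rank 1463 of 1467, close to the end of the list. The summit was in the untranslated part of the last exon, 2182 bp past the start of a short transcript and 34.3 kb from the canonical start. In replicate 1 the nearest summit to this base was 120 kb away. The κB matches were centred 12.5 and 13.5 bp from the summit.

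ITGA5, which encodes the α chain of the classical fibronectin receptor, lies at chr12:54395261-54419266. Its summit, at base 54350920 in replicate 1 only, had a strength of 2.98 (rank 1829 of 2007). It lay 47.9 kb from the nearest start site, just inside the 50 kb limit. The base is in untranslated sequence of COPZ1, a coatomer subunit gene, 0.926 kb from the 3′ end of that gene. ITGB7 encodes a β chain of lymphocyte homing receptors and lies at chr12:53191323-53207282. Its summit in replicate 1, at base 53153504, had a strength of 10.1 (rank 1021) and lay 39 kb from the nearest ITGB7 start site. That base is in EIF4A1P4, a processed pseudogene, which is a reinserted copy of a messenger RNA. Replicate 2 had no summit within 50 kb of either gene, and the nearest were 114 kb from ITGA5 and 94.9 kb from ITGB7.

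MMP25, a protease held at the membrane by a lipid anchor and known from leukocytes, was the only MMP gene of the 6. It lies at chr16:3046062-3060726. Its summit in replicate 1, at base 3065347, had a strength of 9.02 (rank 1118) and was 8.55 kb from the nearest MMP25 start site but 8 bp from a start site of IL32, a cytokine gene. With MMP25, 9 protein-coding genes had a start site within 50 kb of this base. One of the others was TNFRSF12A, the gene of Fn14 itself. The closest summit of replicate 2 to this base was 1103 kb away. The κB matches were centred at -38.5 and -37.5 bp from the summit.

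**Figure D1:**
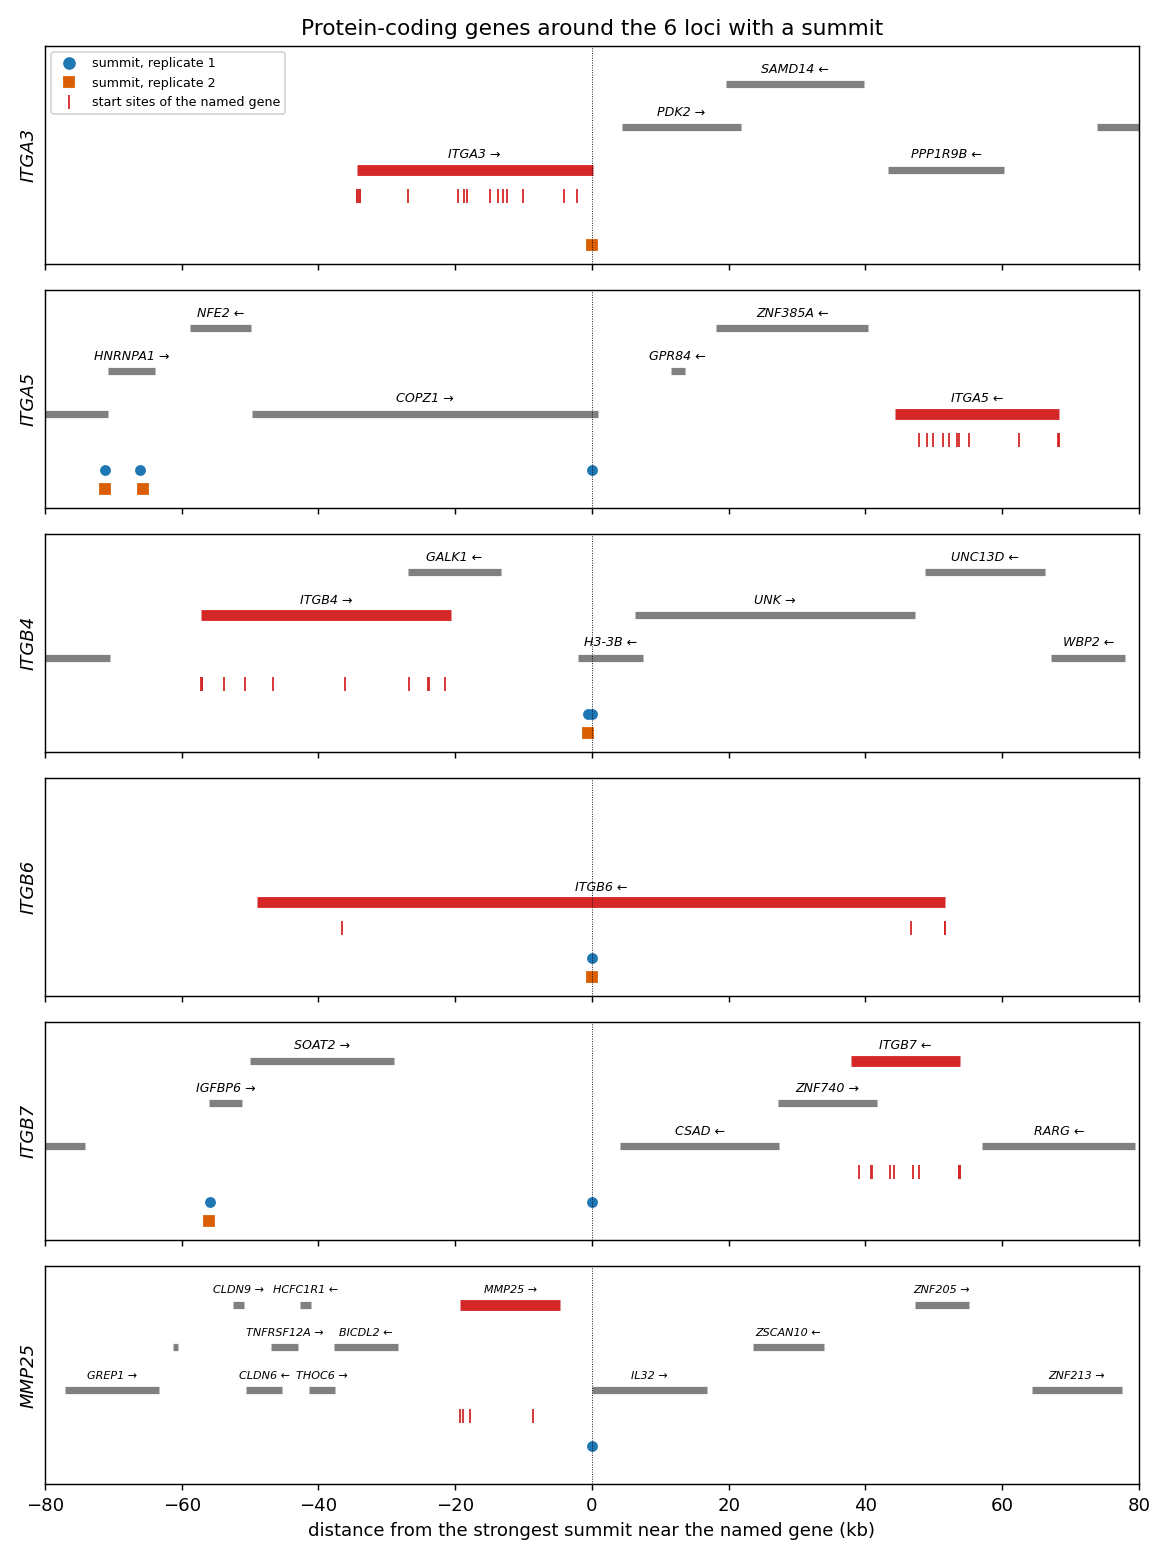
Protein-coding genes within 80 kb of the strongest summit near each of the 6 genes, drawn to scale with the distance from that summit in kb on the x axis. Red bars are the named integrin or MMP genes and red ticks their annotated start sites, grey bars are other genes (those cut by the edge and genes without a symbol are not named), arrows give the strand, and circles and squares are summits of replicates 1 and 2. Only the ITGB6 summit lies inside its gene with no other protein-coding gene in view.

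The 6 loci held 6 distinct summits in replicate 1 and 3 in replicate 2. In replicate 1, 5 of 6 (83.3%) lay in an exon of a protein-coding gene or in a processed pseudogene, against 41.4% of all 1804 summits. In replicate 2 it was 2 of 3 (66.7%) against 34%. κB matches were found at 2 of 6 in replicate 1 (33.3%, Wilson 95% interval 9.68 to 70) and at 2 of 3 in replicate 2 (66.7%, 20.8 to 93.9). Over all summits the share was 52% and 57.3%, and in windows displaced by 1 and 2 kb it was 4.02% and 3.71%. Among all summits in exons or processed pseudogenes only 13.7% and 16.8% had a κB match, against 79.1% and 78.1% of those elsewhere. The AP-1 element TGACTCA, searched on both strands, was found at 0 of the 6 and 0 of the 3, which allows shares of up to 39% and 56.1%. Over all summits it was 7.93% and 7.67%, and in displaced windows 2.65% and 2.8%. These intervals cover counting error only.

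**Figure D2:**
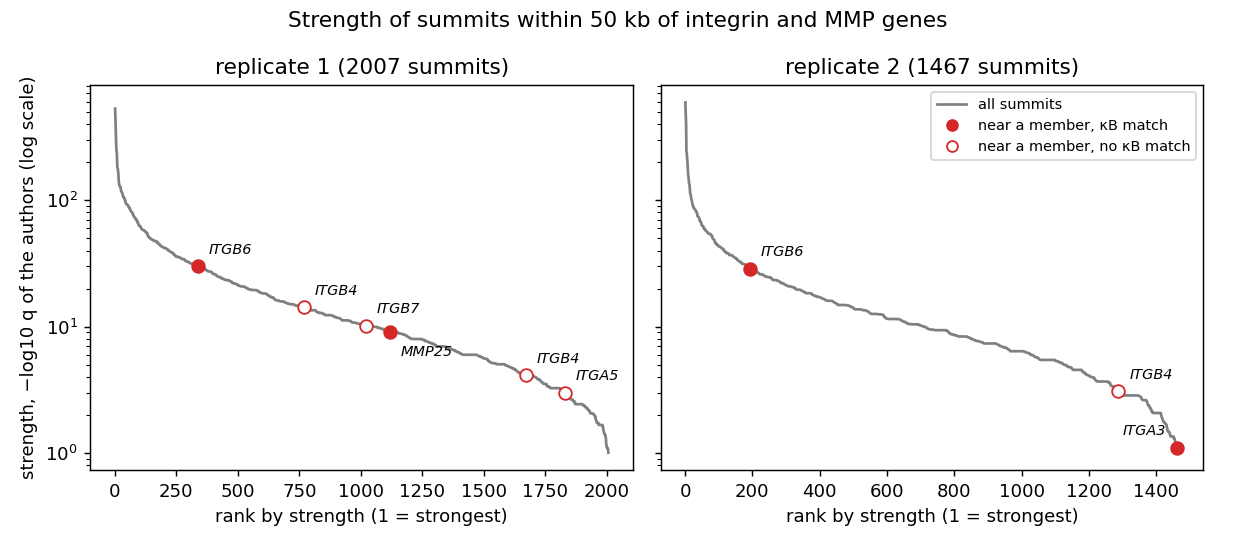
Strength of each summit as −log10 q (log scale) against its rank in the list, for replicates 1 and 2. The grey line is every summit, and red circles are those within 50 kb of an integrin or MMP gene, filled where a κB match lay within 100 bp. ITGB6 ranks 338 and 193, above every other marked summit of its list, and ITGA3 is near the end at rank 1463.

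In replicate 1, 5 of the 48 genes (10.4%, Wilson 95% interval 4.53 to 22.2) had a summit within 50 kb, beside 15% of all 20033 protein-coding genes. In replicate 2 there were 3 (6.25%, 2.15 to 16.8) beside 9.44%. In both replicates there were 2 (4.17%, 1.15 to 14) beside 7.81%, and in either there were 6 (12.5%, 5.86 to 24.7) beside 16.7%. All 4 intervals contain the share of all genes, so with every annotated start site these counts do not set the list apart from other genes. The choice of start sites matters. With only the 5′ end or only the canonical start, 2.08% of the list had a summit in replicate 1, beside 12.7%. In either replicate it was 4.17%, beside 14.1%. Gene-dense regions hold more summits, and 37.5% of the 48 genes had no other protein-coding gene within 50 kb, against 31.9% of all genes. Genes were put in classes by their number of neighbours, starting at 0, 1, 2, 3 and 5, with the last class open. Averaged over genes of the same class, the share was 14.3% in replicate 1, 9.12% in replicate 2, 7.5% in both and 15.9% in either. These would be 6.86, 4.38, 3.6 and 7.64 genes of 48. No test was made on the list, which was chosen with earlier results of these data known.

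Within the list, the counts of each family rest on few genes. Of the 8 β genes, 3 (ITGB4, ITGB6 and ITGB7) had a summit in replicate 1 (37.5%, beside 15% of all genes). In replicate 2 there were 2 (ITGB4 and ITGB6, 25% beside 9.44%). These 2 were also the β genes in both replicates (25%, interval 7.15 to 59.1, beside 7.81%). Of the 18 α genes, 1 had one in each replicate (5.56%), ITGA5 in replicate 1 and ITGA3 in replicate 2. Of the 22 MMP genes, 1 had one in replicate 1 (4.55%) and 0 in replicate 2, which allows a share of up to 14.9%. In replicate 1 the intervals of the β genes (13.7% to 69.4%), the α genes (0.988% to 25.8%) and the MMP genes (0.807% to 21.8%) each contained the 15% of all genes, and differences between families were not tested. With windows of 10 kb, or with only the 5′ end or the canonical start of each gene, no β gene had a summit. Counted once per summit, the 50 kb flanks of the 48 genes covered 6.13 Mb and held 0.979 summits per Mb in replicate 1 and 0.49 in replicate 2. Flanks of all protein-coding genes held 0.891 and 0.573. No summit served more than 1 of the 48 genes.

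Distance to the start site mattered for every count. Within 1 kb of a start site, 0 of the 48 genes had a summit in either list, where all genes had 1.93% and 0.973%. Within 10 kb it was MMP25 alone in replicate 1 (all genes 5.76%) and ITGA3 alone in replicate 2 (3.43%). Within 100 kb, 7 genes had one in replicate 1 (23.6%) and 5 in replicate 2 (15.6%). The genes added were ITGA10 at 69.8 kb in replicate 1, ITGB7 at 94.9 kb in replicate 2, and MMP24 at 76.9 kb in both. At 1000 kb, 23 genes (47.9%) in replicate 1 and 21 (43.8%) in replicate 2 had a summit, whereas 76.3% and 64.4% of all genes did. The MMP genes were at 31.8% and 27.3% there, and the integrins at 61.5% and 57.7%. Without the 9 MMP genes of a chromosome 11 cluster, which share 1 nearest summit, the other 13 MMP genes were at 53.8% and 46.2%. The whole list without this cluster, 39 genes, was at 59% and 53.8%.

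**Figure D3:**
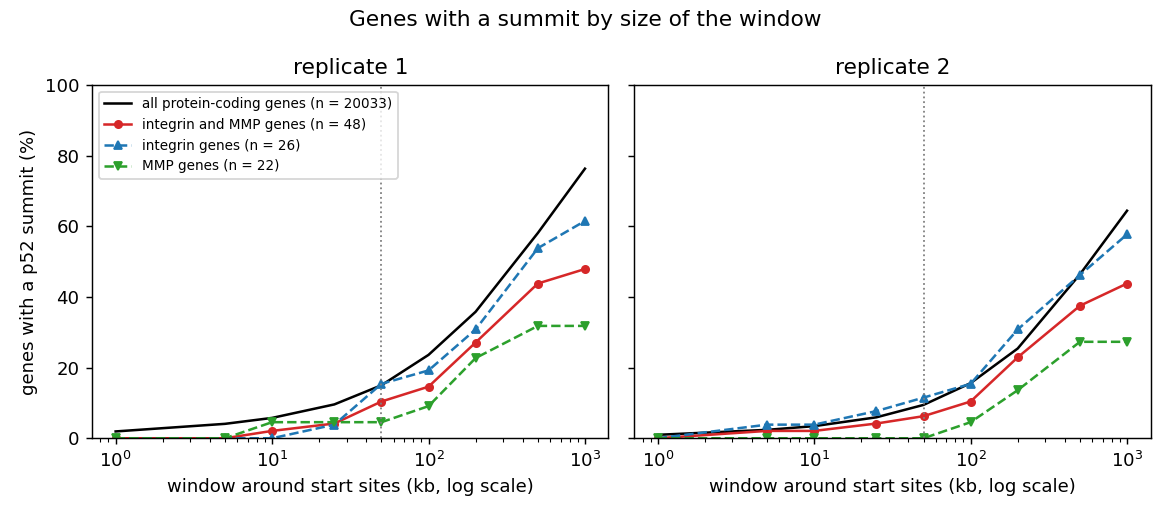
Percent of genes with a summit (y axis) against the size of the window around start sites in kb (x axis, log scale), for each replicate. Black is all 20033 protein-coding genes, red the 48 integrin and MMP genes, blue the 26 integrin genes, green the 22 MMP genes, and the dotted line is 50 kb. At 1000 kb the MMP genes are at 31.8% and 27.3%, below the 76.3% and 64.4% of all genes, and without the 9 clustered MMP genes of chromosome 11 they are at 53.8% and 46.2%.

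Of the MMP genes, 9 lie on 1 stretch of chromosome 11. There, MMP1, MMP3, MMP7, MMP8, MMP10, MMP12, MMP13, MMP20 and MMP27 lie side by side in 435 kb at chr11:102520508-102955732. Some of them encode collagenases or stromelysins. For all 9 genes the nearest summit was the same one, in an intron of ARHGAP42, at base 100981403 in replicate 1 (strength 12.5) and 100981443 in replicate 2 (strength 6.26). It was 1549 to 1974 kb away, and it held both κB and AP-1 matches. Over the 48 genes the median distance to the nearest summit was 1201 kb in replicate 1 and 1214 kb in replicate 2, against 365 and 572 kb over all genes. The 42 genes without a summit within 50 kb had their nearest one 69.8 to 4725 kb away in replicate 1 and 76.9 to 5256 kb away in replicate 2. Without the 9 clustered genes the medians of the other 39 were 402 and 797 kb.

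The integrin genes of chromosome 16 that encode leukocyte α chains, ITGAL, ITGAM, ITGAX and ITGAD, likewise shared 1 nearest summit, which lay in an exon of ALDOA. It was between 402 and 1323 kb from them in both replicates and had no κB match. ITGAV and ITGB1, whose chains take part in many of the heterodimers of epithelial tumour cells, were far from any summit, ITGAV by 2982 and 3252 kb and ITGB1 by 1212 and 3477 kb. MMP2, the gelatinase of stromal cells, was 3743 kb from the nearest summit in both. The rest of the 42 genes were ITGA1, ITGA2, ITGA2B, ITGA4, ITGA6, ITGA7, ITGA8, ITGA9, ITGA10, ITGA11, ITGAE, ITGB2, ITGB3, ITGB5, ITGB8, MMP9, MMP11, MMP14, MMP15, MMP16, MMP17, MMP19, MMP21, MMP24, MMP26 and MMP28.

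**Figure D4:**
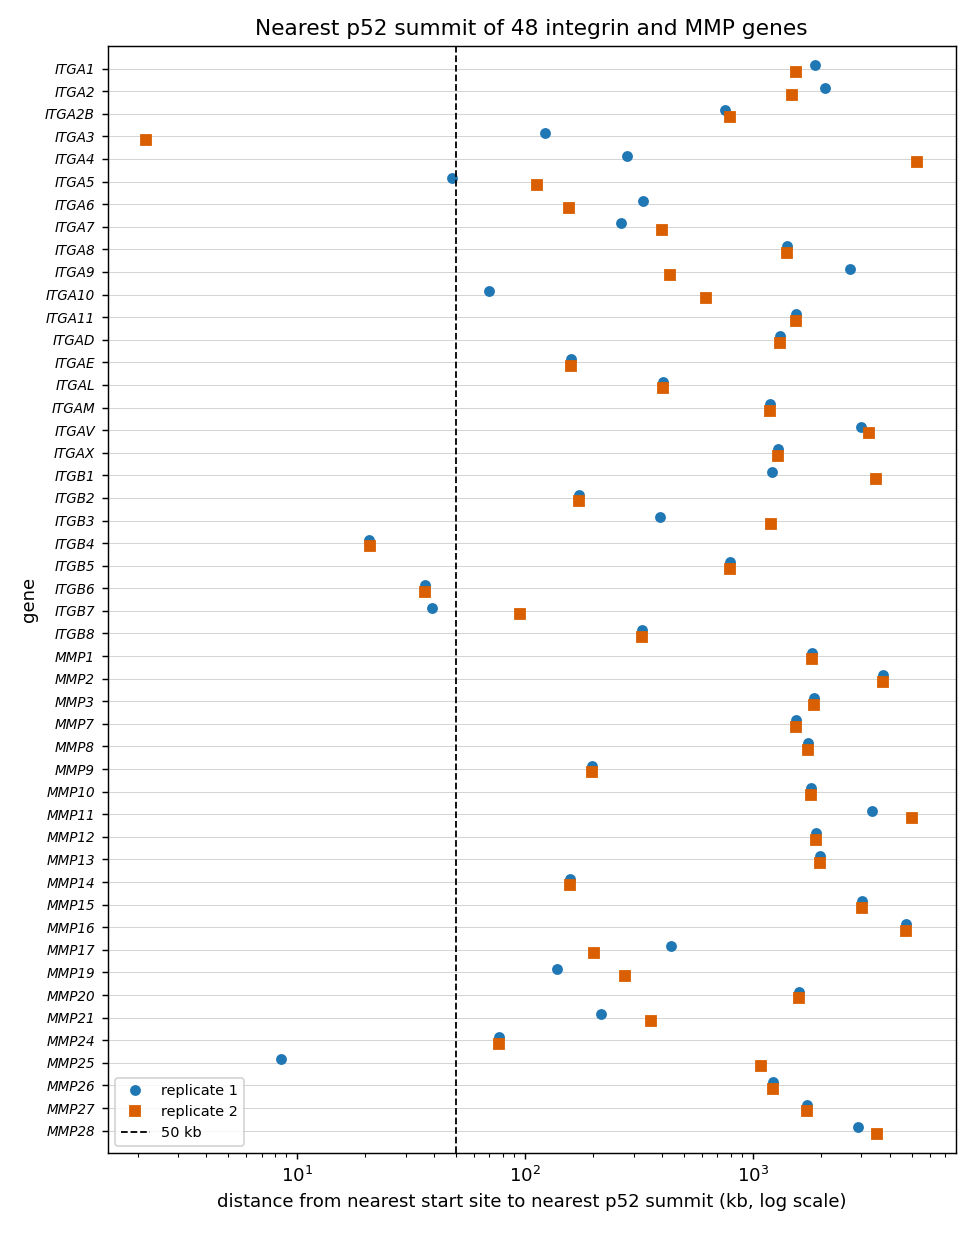
Distance in kb (x axis, log scale) from the nearest start site of each of the 48 genes (y axis) to the nearest p52 summit. Circles are replicate 1, squares replicate 2, and the dashed line is 50 kb. The points of ITGA3, ITGA5, ITGB4, ITGB6, ITGB7 and MMP25 fall to the left of the line in at least 1 replicate, and those of the chromosome 11 MMP genes stack between 1549 and 1974 kb.

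Within 200 kb, 13 of the 48 genes (27.1%, beside 35.8% of all genes) had a summit in replicate 1. In replicate 2 it was 11 (22.9%, beside 25.4%). Past the 50 kb limit, several genes had their nearest summit at the same place in both replicates. The genes described next were chosen after their values were seen, each by its nearest summit. MMP24, a membrane protease, had its nearest summit 76.9 kb away in untranslated sequence of UQCC1, with κB matches and strengths of 15.6 and 5.49. MMP14, the membrane protease that activates pro-MMP2, had it 159 kb away with κB matches and strengths of 20.5 and 11.8. ITGAE, the α chain of an E-cadherin receptor, had it 160 kb away near TRPV3, with κB matches and strengths of 20.7 and 11.5. The strongest of this kind was that of ITGB2, the common β chain of leukocyte integrins, 173 kb away in an intron of ADARB1 with κB matches, strengths of 49.5 and 54.4 and ranks of 145 and 70. MMP9 had its nearest summit 197 kb away in an intron of CDH22, with strengths of 17.6 and 9.47. That summit held an AP-1 match and no κB match. Each of these summits was nearer to a start site of another protein-coding gene, in the order above UQCC1, OR6J1, TRPV3, ADARB1 and CDH22. The lists do not say which gene a summit acts on. Not all shared nearest summits held a κB match, and those of ITGA8 and MMP15, farther away, had none.

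The genes did not lack κB elements at their own 5′ ends. Within 1 kb of the 5′ end, 26 of 48 (54.2%) held a κB match, beside 52% of all protein-coding genes, and 16 (33.3%) held an AP-1 match, beside 20.9%. By family, κB was found at 17 of 26 integrin genes and at 9 of 22 MMP genes. MMP9 had 4 κB and 2 AP-1 matches there, ITGA9 had 6 κB matches and ITGA7 had 4. Of the 26 genes with a κB match, 0 had a summit within 1 kb of the 5′ end in either replicate. Among all genes with such a match it was 1.97% and 0.959%, so a κB match near a 5′ end seldom came with a summit anywhere in the genome.

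Genes whose products act beside integrins and MMPs were counted in the same way. Of 20 integrin adaptors and kinases, 7 (35%) had a summit within 50 kb in replicate 1 and 3 (15%) in replicate 2, beside 15% and 9.44% of all genes. Those in both were PXN (paxillin), PTK2 (focal adhesion kinase) and PARVA (α-parvin, a partner of integrin-linked kinase). The PXN summit lay in the pseudogene NME2P1 without a κB match, with strengths of 27.1 and 10.4. PTK2 and PARVA each had a κB match, with strengths of 22.8 and 6.22 for PTK2 and of 22.5 and 16.1 for PARVA. ILK, the integrin-linked kinase itself, had a summit 9 bp from a start site with 3 κB matches, but at a strength of 3.98 and in replicate 1 only.

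Of 22 integrin ligands, 5 (22.7%) had a summit in replicate 1 and 2 (9.09%) in replicate 2, beside the same 15% and 9.44%, so the share in replicate 2 was near that of all genes. TNC, a matrix glycoprotein of invasive tumour fronts, had one in both replicates 35521 and 35514 bp from a start site, with strengths of 11.6 and 10.2. ICAM2, a ligand of leukocyte integrins, had one 152 and 144 bp from a start site, with strengths of 4.42 and 2.61. Both held κB matches. Of 21 genes for metalloproteinase inhibitors and pericellular proteolysis, 8 (38.1%, beside 15%) had a summit in replicate 1 and 7 (33.3%, beside 9.44%) in replicate 2, with 6 in both (28.6%, beside 7.81%). The 6 were BSG, an inducer of MMPs, FURIN, which cleaves pro-MMPs, PLAU, the urokinase plasminogen activator, and the sheddases ADAM9, ADAM12 and ADAM17. A summit was shared for 5 of the 6, and for ADAM17 the replicates' summits were 321 bp apart. κB matches lay at the summits of FURIN, PLAU, ADAM9 and ADAM12 in both replicates. The summits of PLAU were nearer to CAMK2G, and those of ADAM17 lay in an exon of YWHAQ. The metalloproteinase inhibitor genes of this list (the TIMP genes, RECK and A2M) had no summit within 50 kb in either replicate. No test was made on these lists either.

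Summits that were shared and held κB matches included these 4 near genes of the ligand and proteolysis lists, shown for comparison with the runs near ITGA3 and MMP25, each from the plus strand with 2 overlapping κB matches in capitals. The coordinates are chr9:115000390-115000419 for TNC, chr17:64020370-64020399 for ICAM2, chr15:90870001-90870030 for FURIN and chr10:73875298-73875327 for PLAU.
TNC: ggacttccagGGGAATTTCCCgtcctcctt
ICAM2: caggagcgctGGGGATTCCCCaacccctgc
FURIN: cttggcggagGGGAAGTCCCCactttggga
PLAU: tggaagaaagGGGAAATCCCCattttcttg

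The share of single-copy sequence bears on mapping, since a read that fits several places cannot be placed with certainty. Of the 31-base words in the 201 bp window at the ITGB6 summit, 60.8% occurred once in the reference around the replicate 1 summit and 61.4% around that of replicate 2. Over all summits, 78.3% and 73.2% had a window in which more than 50% of such words occurred once. The ITGA3, ITGA5 and MMP25 windows were single-copy throughout, and that of ITGB7 was at 67.8%. The ITGB4 windows were at 87.7% and 67.8% in replicate 1 and at 67.3% in replicate 2. How the authors treated reads with several matches was not given in the sources used here, and the part of such reads in the ITGB6 summit was not tested.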

How the data were processed

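Per the study's methods, the authors trimmed reads with Trimmomatic, aligned them with Bowtie2 to hg38, ran MACS2 against input for peaks and took out blacklisted regions. Tool versions and the q-value threshold were not given in the sources used here. The deposited lists, 1 per replicate, held 1 bp summits and a column read from its layout as −log10 of the q-value. Depth was unknown.

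Start sites came from GENCODE release 44, with every annotated transcript counted. Motif matches were sought within 100 bp of a summit. Intervals, where given, are Wilson 95% intervals, and the other shares, among them those of the related lists, carry none. Genes are not independent of each other. The rule for named genes took members with a summit within 50 kb, the other members by name with their range of distances, and genes of 3 related lists with a summit in both replicates. ILK, and the members described past 50 kb, were chosen after their values were seen. The members and lists were chosen with earlier results of these data known. The sequence at the ITGB6 summit is not reported here. Calculations used Python 3.11.15, numpy 2.4.6, scipy 1.17.1, pysam 0.24.0, samtools 1.23.1, numba 0.67.0 and matplotlib 3.10.9. Calls and motif searches were tested on simulated data. Alternatives varied the window, the start sites, the strength, the length of the lists, the sharing distance and the motif.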

Additional observations from a re-analysis of the deposited data

How the results depend on the processing

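Values are the number of the 48 genes with a summit in replicate 1, in replicate 2, in both and in either, which were 5, 3, 2 and 6. Within 10 kb they were 1, 1, 0 and 2 (2.08%, 2.08%, 0% and 4.17%), beside 5.76%, 3.43%, 2.75% and 6.43% of all genes. Within 100 kb they were 7, 5, 4 and 8 (14.6%, 10.4%, 8.33% and 16.7%), beside 23.6%, 15.6%, 13.2% and 26%. With only the 5′ end of each gene record, or with only the start of the canonical transcript (an alternative chosen after seeing the data), they were 1, 1, 0 and 2, namely MMP25 and ITGA3. All genes were then at 12.7% in replicate 1 and 7.68% or 7.76% in replicate 2. In both replicates all genes were at 6.26% or 6.36%, and in either at 14.1%. With the stronger 50% of each list they were 2, 1, 1 and 2, beside 6.99%, 4.1%, 3.68% and 7.42% of all genes. Without summits in exons or processed pseudogenes they were 1, 1, 1 and 1, ITGB6 alone, beside 7.36%, 5.05%, 3.77% and 8.64% of all genes. Leaving out 1 replicate gave 3 to 5 for either, with 3 left without replicate 1. Loci with a shared summit, 2 as reported, numbered 0 within 10 kb, 4 within 100 kb, 0 with either of the single start sites, and 1 with the stronger 50%, with lists of equal length or without exons and pseudogenes. Summits with a κB match, 2 in each replicate, numbered 1 and 1 within 10 kb, 4 and 4 within 100 kb, and 1 and 1 without exons and pseudogenes. In 18 cases in all, some of them given above, the count stayed within 1.5 times that reported. They include the mostly single-copy windows (also chosen after seeing the data), other sharing distances, a κB distance of 50 bp and a looser κB pattern. No paired analysis was possible because there was 1 group. The lists limit all counts: with no depth, input or untreated library, an undetected summit and an absent one cannot be told apart.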
